A study of Mus musculus with 6 samples.

Results

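Oxidative phosphorylation genes encode the respiratory chain and the ATP synthase of mitochondria. They were taken as the genes whose symbol begins with Nduf, Uqcr, Cox4 to Cox8 or Atp5, the genes Sdha, Sdhb, Sdhc and Sdhd, and the mitochondrially encoded genes of complexes I, III, IV and V, without pseudogenes. The rule found 105 of the 31017 genes counted, of which 92 lie in the nuclear genome and 13 in mitochondrial DNA. Besides structural subunits it took in the complex I assembly factors named Ndufaf, the factor Cox7a2l that joins complexes III and IV, and Atp5s, which is not a subunit of the enzyme. It left out Cyc1, Cycs and the assembly factors with other names, which are described at the end as neighbouring genes. No measured value entered the rule.

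The samples were mouse Th17 cells, a helper T cell type that makes interleukin 17, differentiated in culture. Total RNA of 3 control libraries, of the genotype WT, was compared with that of 3 libraries deficient in RTF1, labelled KO. Rtf1 encodes a factor that accompanies elongating RNA polymerase II. The way in which the gene was removed, the cells in which it was removed, the strain and the age of the animals, and whether the replicates were separate cultures or animals are not given in the sources used here. The p-values therefore measure the spread between these libraries, which may be technical.

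Complex I takes electrons from NADH and complex II takes them from succinate, and both pass them to ubiquinone. Complex III moves them on to cytochrome c and complex IV to oxygen, and the protons pumped on the way drive complex V, the ATP synthase. Complex II is encoded wholly in the nucleus, whereas the other complexes mix nuclear products with products of mitochondrial DNA, so that their assembly draws on both genomes. Th17 cells are known for high glycolysis under HIF1A, and they also respire.

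Library totals ran from 16489813 to 51271226 counts in the control group and from 19304121 to 35907999 in the KO group. Levels are given as CPM, counts per 1000000 of the library total scaled by TMM factors, and a gene was called where edgeR's quasi-likelihood test gave an adjusted p under 0.05 over the 14268 genes tested. Rtf1, the targeted gene, stood at 94.0, 91.2 and 88.3 CPM in control replicates 1 to 3 and at 45.3, 30.4 and 26.2 in KO replicates 1 to 3 (log2 fold change -1.42, SE 0.19, adjusted p = 0.000755). Its RNA was thus lower in every KO library and still present in each of them. The 6 T cell markers summed to 1496 to 2050 CPM in control and 1381 to 1870 in KO libraries, but not all of them held their level. Cd4, the coreceptor of helper T cells, fell (443, 477 and 539 CPM in control and 254, 218 and 290 in KO libraries, log2 fold change -0.94, adjusted p = 0.00132), while the CD3 chains Cd3e (0.71, adjusted p = 0.00242) and Cd3g (0.72, adjusted p = 0.0221) rose. Cd3d, Cd28 and Trac were not called. Il17a, the cytokine that defines the labelled cell type, stood at 347, 306 and 222 CPM in control and 161, 40.4 and 77.4 in KO libraries, present in all 6 and lower in every KO library. The part of these T cell differences in the results was not tested. Markers of B cells, CD8 T and NK cells, erythroid cells and fibroblasts summed to at most 11.1 CPM in any library. The 5 myeloid markers summed to 2.09 to 5.04 CPM in control and 16.4 to 27.4 in KO libraries, mostly from Cd68. Of these 5 markers 2 had enough counts to be tested, both were higher in KO cells, and their part in the results was not tested. In bulk RNA, fewer cells of a type and less RNA per cell cannot be told apart.

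Most oxidative phosphorylation genes differed little between the groups. Of the 105 members 101 had enough counts to be tested, 16 rose in KO cells, 8 fell and 77 were not called, so that 23.8% were called. Over all tested genes 46.1% were called, 23.2% higher and 22.9% lower. Of the nuclear structural subunits of complexes I, II, III, IV and V, 16.7%, 25%, 12.5%, 27.3% and 13.3% were called higher. Complexes I and III had 11.1% and 12.5% of theirs called lower, and the others 0%. Of the mt-encoded members 15.4% were called higher. The median size of the log2 fold change, whatever its sign, was 0.27 over the members and 0.54 over all tested genes. The median SE was 0.149 over the members and 0.195 over all tested genes, and the 2 sets were not matched for expression level. The signed median was 0.07 over the members and 0.01 over all tested genes. Ndufa4l2 was the sole called member with a change of at least 2-fold, a size reached by 22.3% of all tested genes. It passed the filter on low counts through the control libraries alone, so its change is given as a description. The 3 KO libraries lay above all 3 control libraries for 22 members and below them for 10. Over all tested genes they lay above in 29.9% and below in 28%, together 57.9%. The plot of fold changes by complex shows members on both sides of 0 in each of the 5 complexes.

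**Figure D1:**
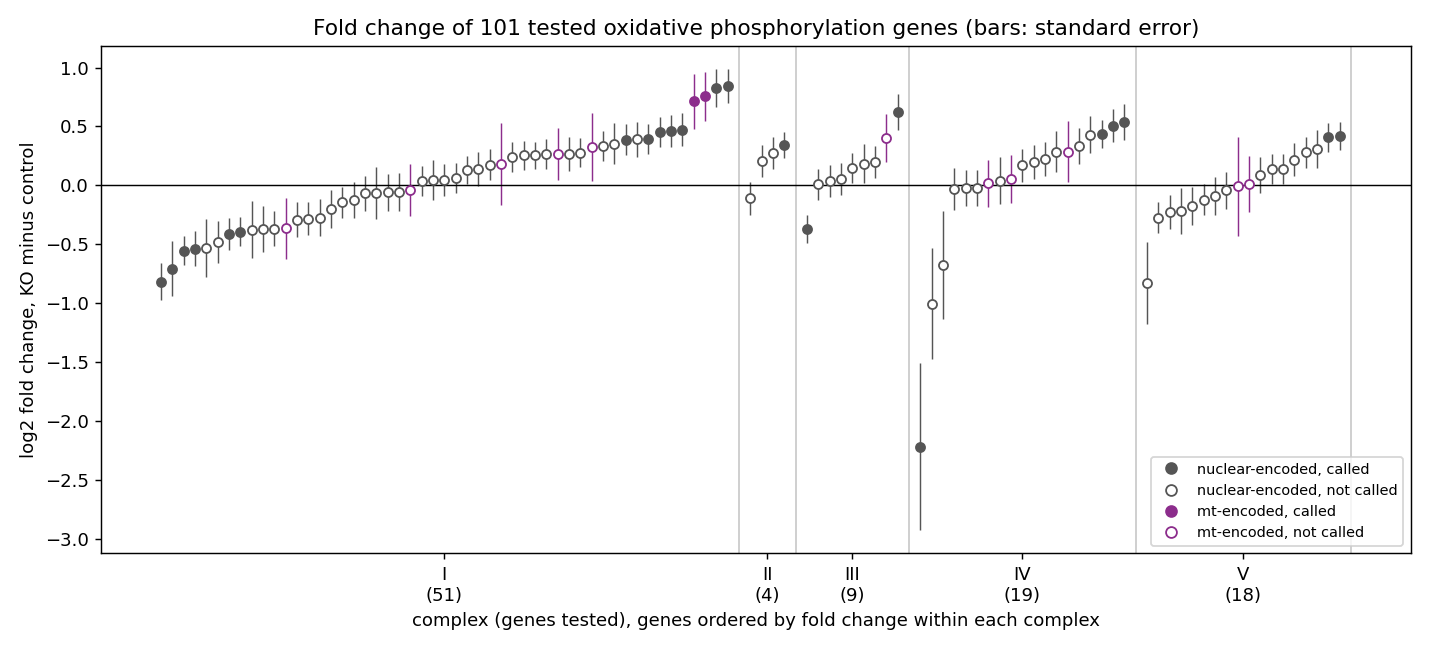
Log2 fold change (KO minus control) of the 101 tested members, grouped by complex I to V and ordered within each complex, with bars of 1 standard error of edgeR's fit, 3 libraries a group. Grey points are nuclear-encoded and purple points mt-encoded genes, and filled points are the 24 called genes. All points but those of Ndufa4l2 (-2.22) and Cox4i2 (-1.0), at low counts in complex IV, lie between -0.83 and 0.84.

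Which genes were called depended on single libraries. Only 4 of the 24 called members were called in all 6 fits that each left out 1 library: Ndufa1 and Ndufa11, which rose, and Ndufc2 and Ndufaf5, which fell. The number of members called higher was 4 without control replicate 1, 6 without control replicate 3, 5 without KO replicate 2, 9 without KO replicate 3 and 29 without control replicate 2. The number called lower was 2 without KO replicate 2, 3 without KO replicate 3, 4 without control replicate 2 and 15 without control replicate 3. With the replicate number as a block 24 members were called higher and 11 lower, the 24 calls made without it included. With libraries scaled by their totals alone 26 were called higher and 4 lower. The block called 53.5% of all tested genes, and the shares of all tested genes in the other fits are not given here. Leaving out a library weakens the test of every gene. Whether the members depended on single libraries more than other genes did was not tested.

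Control replicate 2 stood apart in these genes. Among the 3 control libraries it was the highest in 78 of the 88 tested nuclear-encoded members, against 33% of all tested genes. It was the lowest in all 13 mt-encoded members, against 38.2% of all tested genes. Nuclear-encoded members took 1.07%, 1.25% and 0.952% of the counts of control replicates 1 to 3, and 1.23%, 1.31% and 1.18% of those of KO replicates 1 to 3. The mt-encoded members took 1.16%, 0.642% and 1.14% in control and 1.44%, 1.11% and 1.37% in KO libraries. The ratio of mt-encoded to nuclear-encoded counts was 1.09, 0.515 and 1.19 in control and 1.17, 0.844 and 1.16 in KO libraries, and the groups overlapped. The libraries numbered 2 had the lowest ratio of their group in both groups.

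**Figure D2:**
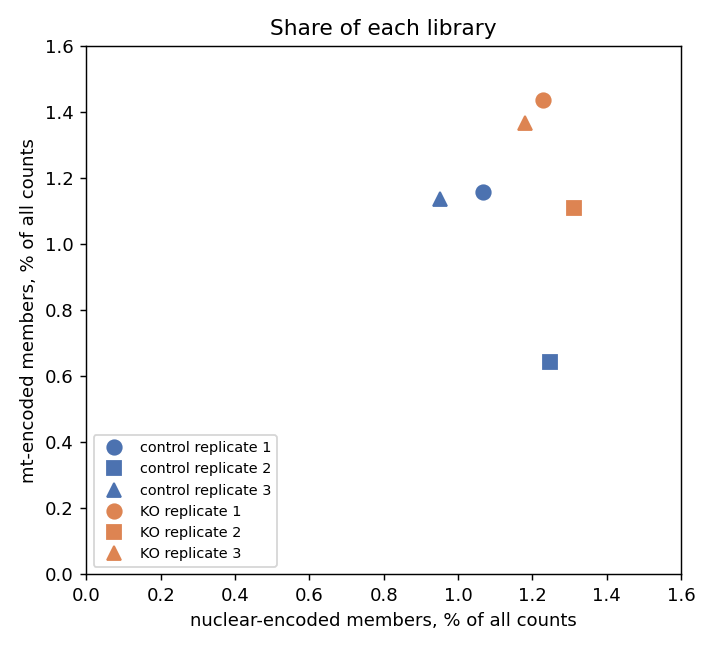
Share of each library's counts in nuclear-encoded members (x axis, %) and in mt-encoded members (y axis, %), both axes from 0, 1 point a library, blue for control and orange for KO, with the replicate number as the shape. Control replicate 2 sits lowest at 0.642% mt-encoded counts, and the 3 KO libraries lie between 1.11% and 1.44%.

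Complex I, with 36 nuclear structural subunits, held members that changed in both directions: 6 rose, 4 fell and 26 were not called. Its summed nuclear level was 2497, 3070 and 2402 CPM in control and 2735, 2938 and 2720 in KO libraries. The groups overlapped, and the KO mean was 1.05 times the control mean. Ndufa1, a small membrane-arm accessory subunit encoded on the X chromosome, stood at 60.7, 75.2 and 58.2 CPM in control and 98.6, 124 and 126 in KO libraries (log2 fold change 0.84, SE 0.14, adjusted p = 0.00213). Ndufa11, an accessory subunit of the membrane arm, stood at 38.7, 50.5 and 33.8 CPM and at 67.7, 79.6 and 70.6 (log2 fold change 0.82, SE 0.16, adjusted p = 0.00371). For both genes the lowest KO library was well above the highest control library, and leaving out any library kept the log2 fold change between 0.71 and 0.95 for Ndufa1 and between 0.64 and 0.99 for Ndufa11. The next largest rises were in 2 other accessory subunits, in Ndufa8, at 69.8, 87.1 and 62.6 CPM in control and 103, 107 and 95.3 in KO libraries (log2 fold change 0.47, SE 0.14, adjusted p = 0.0217), and in Ndufb3, at 47.7, 62.6 and 50.3 CPM and at 69.1, 81.5 and 70.7 (0.46, SE 0.14, adjusted p = 0.023). Neither overlapped between the groups. Both lost the call without control replicate 1, control replicate 3 or KO replicate 2, with an adjusted p of up to 0.156 for Ndufa8 and 0.183 for Ndufb3, and Ndufa8 also without KO replicate 1 (adjusted p = 0.0525). The accessory subunits Ndufa7 (0.45, adjusted p = 0.0187) and Ndufb9 (0.39, adjusted p = 0.0389) rose as well, and each lost the call without control replicate 1, with adjusted p of 0.163 and 0.272, and in 3 or more of the other fits that left out a library.

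The complex I subunits that fell were Ndufc2, Ndufs8, Ndufa9 and Ndufs4. Ndufc2, a subunit of the membrane arm, stood at 82.7, 102 and 88 CPM in control and 63.9, 65.1 and 57 in KO libraries (log2 fold change -0.55, SE 0.12, adjusted p = 0.00606). Its groups did not overlap, and the log2 fold change stayed between -0.69 and -0.47 whichever library was left out. Ndufs8, which carries iron-sulfur clusters on the path of electrons to ubiquinone, stood at 53.1, 64 and 44.6 CPM in control and 39, 38 and 34.6 in KO libraries (log2 fold change -0.54, SE 0.15, adjusted p = 0.018), again without overlap. It was the called gene among the 7 nuclear core subunits, none of which rose by edgeR's test, by DESeq2 or at an unadjusted p under 0.05 (0 genes each). The call of Ndufs8 was lost without control replicate 2, KO replicate 2 or KO replicate 3 (adjusted p up to 0.0649). Ndufa9, an accessory subunit near the ubiquinone site (-0.41, SE 0.13, adjusted p = 0.032), stood at 91.6, 105 and 81 CPM and at 71.7, 75.2 and 61.7, and Ndufs4, an accessory subunit of the arm that oxidizes NADH (-0.39, SE 0.12, adjusted p = 0.0296), at 60.6, 78 and 65.1 CPM and at 51.5, 53.3 and 50.6. For both genes every KO library was below every control library. Ndufa9 lost the call without any library but control replicate 3, and Ndufs4 without control replicate 2 or any KO replicate, with an adjusted p of up to 0.116 and 0.0897. The 26 subunits that were not called had log2 fold changes from -0.48 in Ndufa12 to 0.39 in Ndufb10.

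Of the 8 complex I assembly factors named Ndufaf, proteins that help to build the complex and are not part of it, 2 fell, 1 rose and 5 were not called. That is 25% lower and 12.5% higher, against 22.9% and 23.2% of all tested genes. Ndufaf5, an assembly factor that modifies a core subunit, stood at 16.4, 17.1 and 16.5 CPM in control and 10.7, 9.37 and 8.23 in KO libraries (log2 fold change -0.82, SE 0.16, adjusted p = 0.00384). The control libraries lay close together and all KO libraries lay below them, and the log2 fold change was between -0.92 and -0.73 whichever library was left out. Ndufaf6 fell less firmly, from 8.94, 10.2 and 9.55 CPM to 7.1, 6.22 and 4.17 (-0.71, SE 0.23, adjusted p = 0.0344), and lost the call without control replicate 2, KO replicate 2 or KO replicate 3 (adjusted p up to 0.0974). Ndufaf1 rose from 24.3, 27.7 and 27.2 CPM to 31.8, 36.5 and 35.6 (0.39, SE 0.13, adjusted p = 0.0322), and kept the call only without KO replicate 1 (adjusted p up to 0.231 otherwise).

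The start-site regions of the 4 members called in every fit are shown so that those that rose can be set beside those that fell. They run from 250 bases before to 50 bases after the annotated start in RefSeq, build GRCm38.p6, 5′ to 3′ on the gene's strand, and lie at chrX:37191189-37191488 on the minus strand for Ndufa1, and on the plus strand at chr17:56717512-56717811 for Ndufa11, chr2:140170396-140170695 for Ndufaf5 and chr7:97399753-97400052 for Ndufc2. Capitals mark GCGCATGC on either strand, a word bound by NRF1, a factor known for driving respiratory chain genes.
Ndufa1: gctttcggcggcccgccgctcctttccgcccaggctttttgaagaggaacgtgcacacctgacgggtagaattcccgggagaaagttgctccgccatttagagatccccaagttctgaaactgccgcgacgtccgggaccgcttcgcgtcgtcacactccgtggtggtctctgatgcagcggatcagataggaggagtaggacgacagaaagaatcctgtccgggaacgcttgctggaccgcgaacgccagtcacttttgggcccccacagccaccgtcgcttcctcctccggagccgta
Ndufa11: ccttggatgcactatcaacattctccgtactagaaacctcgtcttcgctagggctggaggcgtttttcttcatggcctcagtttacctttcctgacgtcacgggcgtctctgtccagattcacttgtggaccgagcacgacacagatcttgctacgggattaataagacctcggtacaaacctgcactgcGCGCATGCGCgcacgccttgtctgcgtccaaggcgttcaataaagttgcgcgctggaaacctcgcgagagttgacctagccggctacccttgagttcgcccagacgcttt
Ndufaf5: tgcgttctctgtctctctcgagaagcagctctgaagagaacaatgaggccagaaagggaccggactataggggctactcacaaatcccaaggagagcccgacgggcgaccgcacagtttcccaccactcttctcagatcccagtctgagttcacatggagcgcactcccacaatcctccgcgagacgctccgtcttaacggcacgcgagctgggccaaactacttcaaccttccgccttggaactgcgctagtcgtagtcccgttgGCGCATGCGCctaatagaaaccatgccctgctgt
Ndufc2: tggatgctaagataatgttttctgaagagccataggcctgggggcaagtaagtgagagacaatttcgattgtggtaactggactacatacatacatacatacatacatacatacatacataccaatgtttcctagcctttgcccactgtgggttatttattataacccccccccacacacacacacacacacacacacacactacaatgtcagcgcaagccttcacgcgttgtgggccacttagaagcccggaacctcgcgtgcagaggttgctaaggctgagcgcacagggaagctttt
In both genes that hold it the word overlaps its own reverse complement. It began 60 bases before the start in Ndufa11, which rose, and 17 bases after it in Ndufaf5, which fell. Of the 92 nuclear members 74 were matched to a region in the RefSeq table, and 12 of these (16.2%) held the word, against 3.05% of the regions of all 27025 genes in the table and 5.82% of those of the 10397 tested genes. With both strands searched, the ETS core CCGGAAG stood in 24.3% of the members' regions and 19.8% of those of the tested genes, AAGATGGC, a YY1 word, in 13.5% and 5.25%, and AAGGTCA, an ESRRA word, in 10.8% and 4.03%. By call, the ETS core stood in 6 of 12 regions of members that rose, in 1 of 5 of those that fell and in 11 of 55 of those not called. The NRF1 word stood in 3 of 12, 1 of 5 and 8 of 55, the YY1 word in 1 of 12, 2 of 5 and 7 of 55, and the ESRRA word in 1 of 12, 0 of 5 and 7 of 55. The words were searched separately and none holds another in full. A match is a description of the letters and not a measured site.

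In complex II all 4 subunits were measured, and 1 was called. Sdha, the catalytic subunit that carries FAD, stood at 241, 269 and 228 CPM in control and 313, 318 and 305 in KO libraries (log2 fold change 0.34, SE 0.11, adjusted p = 0.0344). All KO libraries were above all control libraries, yet the call was kept only without control replicate 2 (adjusted p up to 0.236 when another library was left out). Sdhb, the iron-sulfur subunit, had a log2 fold change of -0.11, and the membrane anchors Sdhc and Sdhd had 0.21 and 0.28. No complex II gene fell by edgeR's test, by DESeq2 or at an unadjusted p under 0.05 (0 genes each).

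Among the 8 nuclear subunits of complex III, Uqcrh rose, Uqcrq fell and 6 were not called. Uqcrh, the hinge protein at the cytochrome c side, stood at 131, 178 and 137 CPM in control and 205, 255 and 226 in KO libraries (log2 fold change 0.62, SE 0.15, adjusted p = 0.00963). Uqcrq, a small membrane subunit, stood at 106, 127 and 102 CPM in control and 87.4, 87.4 and 84.5 in KO libraries (log2 fold change -0.37, SE 0.12, adjusted p = 0.0287). Neither gene overlapped between the groups. Uqcrh lost the call only without control replicate 1 (log2 fold change 0.47, adjusted p = 0.0876), and Uqcrq without control replicate 2 or any KO replicate (adjusted p up to 0.0918). The Rieske iron-sulfur protein Uqcrfs1 and the large subunits Uqcrc1 and Uqcrc2 had log2 fold changes of 0.06, 0.04 and 0.01.

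Of the 11 nuclear subunits of complex IV 3 rose, and none fell by edgeR, by DESeq2 or at an unadjusted p under 0.05 (0 genes each). Its summed nuclear level was 1970, 2509 and 1797 CPM in control and 2508, 2708 and 2424 in KO libraries. The groups overlapped, and the KO mean was 1.22 times the control mean. For complexes II, III and V the nuclear sums were 1.17, 1.10 and 0.997 times the control level. Cox6b1, a subunit on the intermembrane side, stood at 138, 179 and 120 CPM in control and 208, 222 and 207 in KO libraries (log2 fold change 0.54, SE 0.15, adjusted p = 0.0188). Cox6c, a small membrane subunit, stood at 243, 305 and 226 CPM and at 361, 396 and 344 (log2 fold change 0.51, SE 0.14, adjusted p = 0.0178). Cox8a, another small membrane subunit, stood at 191, 225 and 187 CPM and at 258, 280 and 278 (log2 fold change 0.44, SE 0.12, adjusted p = 0.016). In all 3 genes the KO libraries lay above the control libraries, of which control replicate 2 was the highest. All 3 lost the call without control replicate 1, control replicate 3 or KO replicate 2, with adjusted p of up to 0.14 for Cox6b1, 0.142 for Cox6c and 0.149 for Cox8a, which also lost it without KO replicate 3 (adjusted p = 0.0551). Of the 8 others, Cox5a (-0.03), Ndufa4 (-0.02), which is named for complex I and is a complex IV subunit, and Cox7c (-0.02) had log2 fold changes just below 0.

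Of the 8 members of complex IV that replace a common subunit in certain tissues or conditions, 4 had enough counts to be tested and 1 was called. That is 25% lower and 0% higher of those tested, against 22.9% and 23.2% of all tested genes. Ndufa4l2, a paralog of Ndufa4 known for its induction by HIF1A, had 16, 19 and 27 counts in control and 8, 2 and 1 counts in KO libraries, that is 0.973, 0.392 and 0.641 CPM against 0.304, 0.0534 and 0.0508 (log2 fold change -2.22, SE 0.71, adjusted p = 0.0307). The filter asked for 0.325 CPM of the unscaled total in 3 libraries, which 3 control and 0 KO libraries reached, the sole tested member for which the groups differed in this way. Its low KO values and its call are therefore a description and support no change. The call held without control replicate 2 and without KO replicate 1, and was lost without control replicate 1, KO replicate 2 or KO replicate 3 (adjusted p up to 0.124). Without control replicate 3 the gene had too few counts for a test. Hif1a itself stood at 791, 830 and 1229 CPM in control and 437, 465 and 465 in KO libraries (log2 fold change -1.06, SE 0.18, adjusted p = 0.00197), with no overlap. Cox4i2, the low-oxygen form of Cox4i1, was at 0.851, 1.28 and 2.64 CPM in control and 0.607, 0.774 and 1.07 in KO libraries, with overlap and no call (log2 fold change -1.0, adjusted p = 0.112). Cox6b2 had a log2 fold change of -0.68 and was not called either, and Cox7a1, the heart and muscle form of Cox7a2, was at 5.74 to 6.68 CPM in control and 5.8 to 6.73 in KO libraries. Too few counts for a test were found for the muscle form Cox6a2, with 5, 37 and 45 counts in control and 3, 2 and 4 in KO libraries, and for Cox8b, with 0, 3 and 4 and with 13, 11 and 5. Cox7b2 and Cox8c had 0 counts in all 6 libraries.

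In complex V 2 of the 15 nuclear subunits rose, both in the stalk and membrane part, and 13 were not called. None of the 5 nuclear subunits of the F1 head was called in either direction by edgeR or DESeq2, and 0 had an unadjusted p under 0.05. Atp5b, the catalytic beta subunit and the most abundant nuclear member by CPM per kilobase of exon in control libraries, stood at 1454, 1782 and 1215 CPM in control and 1371, 1313 and 1259 in KO libraries (log2 fold change -0.17, SE 0.16, adjusted p = 0.393). Atp5a1, the alpha subunit, stood at 884, 1073 and 745 CPM and at 976, 997 and 904 (0.09, SE 0.15, adjusted p = 0.655), and in both genes the KO libraries lay within the range of the control libraries. Among the 10 nuclear stalk and membrane subunits, Atp5l and Atp5j rose. Atp5l, subunit g of the membrane part, stood at 56.6, 63.8 and 56.2 CPM in control and 72.5, 86.4 and 77.4 in KO libraries (log2 fold change 0.42, SE 0.12, adjusted p = 0.017). Atp5j, coupling factor 6 of the stalk, stood at 178, 199 and 154 CPM and at 232, 239 and 233 (0.41, SE 0.12, adjusted p = 0.0244). Neither overlapped, and both lost the call without control replicate 1, control replicate 3 or KO replicate 2 (adjusted p up to 0.138 and 0.157), Atp5j also without KO replicate 1 or 3. The c-ring genes Atp5g1, Atp5g2 and Atp5g3, which encode the same mature protein, made up 21.6% ± 2.35, 18.6% ± 4.27 and 59.8% ± 2.06 of their summed CPM in control (SD, n = 3) and 20.8% ± 0.98, 16.7% ± 0.366 and 62.5% ± 0.681 in KO libraries.

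The plot of called members by library shows the place of control replicate 2. In all 14 nuclear members that rose, control replicate 2 was the highest control library and so the nearest to the KO group. In 7 of the 8 that fell it was again the highest and so the farthest from the KO group. The exception was Ndufa4l2, which passed the filter through the control libraries alone. Control replicate 2 was the highest control library in 88.6% of all 88 tested nuclear-encoded members, so this place is not particular to the called ones.

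**Figure D3:**
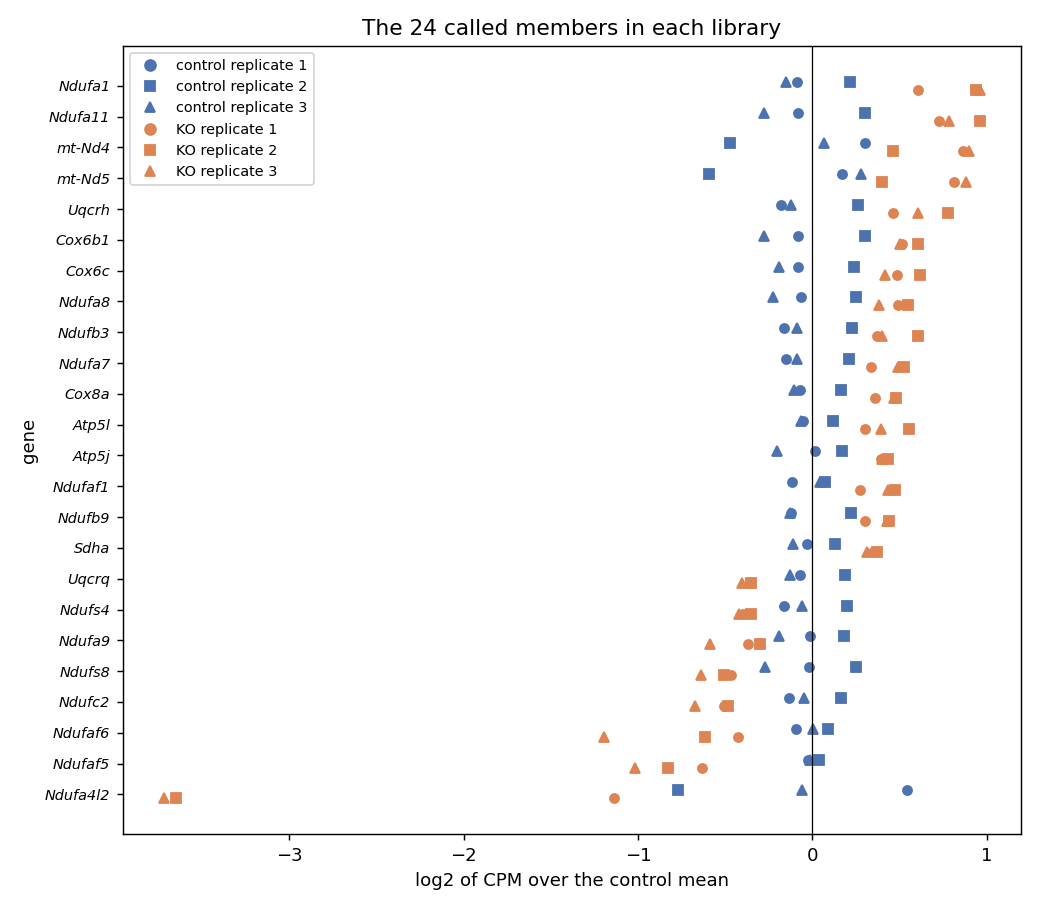
The 24 called members, from the largest rise at the top to the largest fall, as log2 of each library's CPM over the control mean (x axis), 1 point a library, blue for control and orange for KO, with the replicate number as the shape. Blue and orange points are separate in every gene, and KO replicates 2 and 3 of Ndufa4l2 lie farthest to the left, at 2 counts and 1 count.

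Replicate numbers paired the libraries to a degree, and with the number as a block 11 more members were called. Higher under the block were Ndufa6 (adjusted p = 0.0907 without and 0.0461 with the block), Ndufa13 (0.0574 and 0.0278), Ndufb10 (0.0556 and 0.0102), Cox4i1 (0.101 and 0.0227), Cox7a2 (0.0514 and 0.0135), Cox7a2l (0.204 and 0.046), Atp5j2 (0.149 and 0.0409) and mt-Cytb (0.14 and 0.0158). Lower under the block were Ndufa12 (0.0534 and 0.0137), Ndufa2 (0.0715 and 0.0459) and Ndufaf2 (0.109 and 0.0298), of which Ndufaf2 shares 64.1% of its 50-base stretches with other annotated genes. The block called 53.5% of all tested genes. In 41 of the 101 tested members the KO library was above the control library of the same number in all 3 pairs, and in 25 it was below in all 3, that is 40.6% and 24.8%. Over all tested genes the shares were 37.8% and 36.8%. The pairs of Cox4i1, the main form of subunit 4, stood at 302 and 417, at 410 and 471 and at 305 and 396 CPM, control first.

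The 13 mt-encoded members, with a median log2 fold change of 0.18, included 2 that rose, 11 that were not called and 0 that fell by edgeR, by DESeq2 or at an unadjusted p under 0.05. Both genes that rose encode membrane-arm subunits of complex I. mt-Nd4 stood at 616, 362 and 525 CPM in control and 913, 690 and 935 in KO libraries (log2 fold change 0.76, SE 0.21, adjusted p = 0.017), and mt-Nd5 at 1170, 689 and 1259 CPM and at 1827, 1372 and 1909 (0.71, SE 0.23, adjusted p = 0.0346). All KO libraries were above all control libraries, and control replicate 2 was by far the lowest. The call of mt-Nd4 was lost without KO replicate 1 (adjusted p = 0.0512) or KO replicate 3 (adjusted p = 0.056), and that of mt-Nd5 without control replicate 1, control replicate 2, KO replicate 1 or KO replicate 3 (adjusted p up to 0.104). Without control replicate 2 the median of the 13 genes was -0.16.

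The other mt-encoded genes overlapped between the groups. mt-Co1, the catalytic subunit of complex IV and the mt-encoded gene with the most counts, stood at 5181, 3046 and 6533 CPM in control and 6366, 5093 and 6531 in KO libraries. mt-Cytb, cytochrome b of complex III, stood at 1701, 1047 and 1129 CPM and at 1998, 1521 and 1600 (log2 fold change 0.40, SE 0.21, adjusted p = 0.14). mt-Nd1 stood at 1603, 913 and 1144 CPM and at 1404, 965 and 1191. Control replicate 2 was the lowest control library each time, and in all 3 genes it was also below all KO libraries. mt-Nd2 stood at 844, 485 and 635 CPM and at 935, 622 and 802, and mt-Nd6, the gene encoded on the other strand from the rest, at 183, 82.5 and 251 CPM and at 235, 143 and 208. In both genes the KO libraries lay within or near the range of the control libraries. Among the genes of complex IV, mt-Co2 was at 138, 78.1 and 118 CPM and at 134, 103 and 110, and mt-Co3 at 81.2, 46.3 and 75.7 and at 76.8, 62.6 and 66.1. The complex V genes mt-Atp6, at 55.8, 27.9 and 52.4 CPM and at 51.3, 43 and 42.5, and mt-Atp8, at 3.77, 1.36 and 4.16 and at 3.72, 2.7 and 2.75, had log2 fold changes of 0.01 and -0.01. None of these genes separated the groups. The short genes mt-Nd3, at 10.6, 7.39 and 8.05 CPM and at 8.85, 5.13 and 6.2, and mt-Nd4l, at 12.2, 6.38 and 9.91 and at 12.9, 8.22 and 14.3, had log2 fold changes of -0.36 and 0.32. The sign of the log2 fold change was not the same under every setting tried for mt-Co1, mt-Co2, mt-Co3, mt-Nd1, mt-Nd2, mt-Nd4l, mt-Nd6, mt-Atp6 and mt-Atp8. For mt-Co1, mt-Nd2 and mt-Nd4l it changed only in the fit with the mt-encoded counts as library size, which compares shares of those counts and is another measure.

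**Figure D4:**
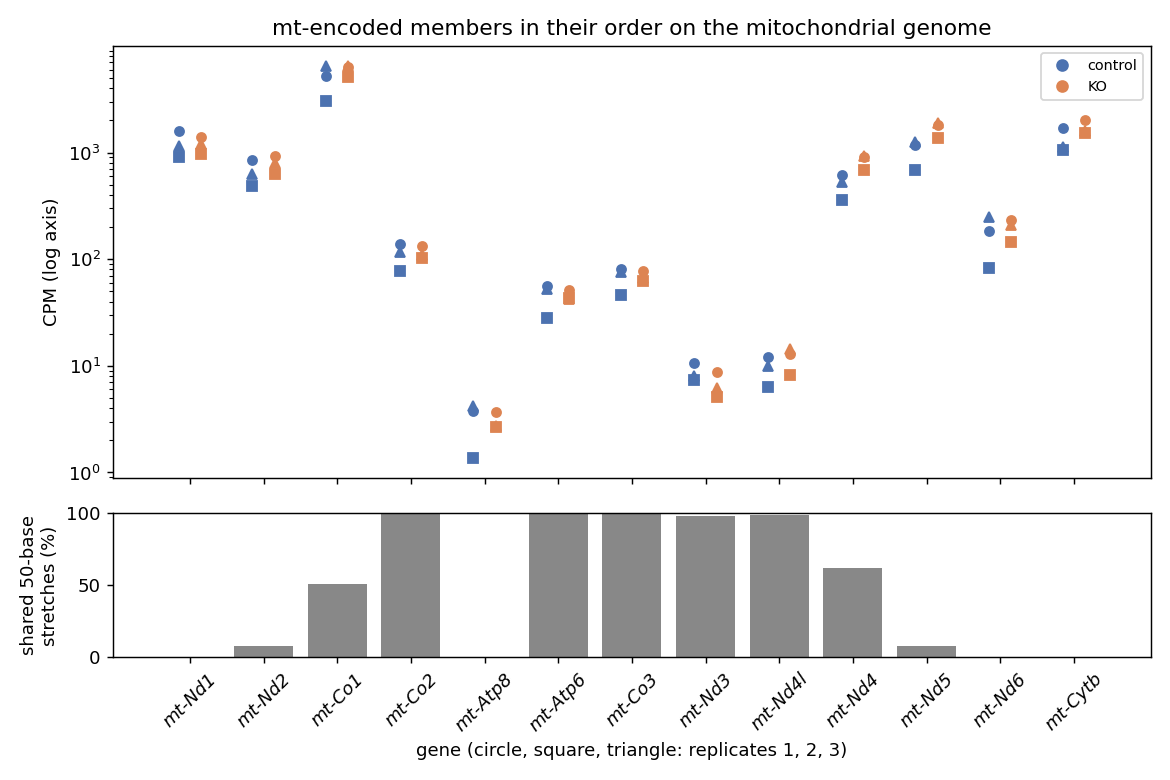
Top, CPM of the 13 mt-encoded members on a log axis in their order along mitochondrial DNA, blue for control and orange for KO, with circle, square and triangle for replicates 1, 2 and 3. Bottom, the percentage of each gene's 50-base stretches that occur in another annotated gene: it is 98% or more for mt-Co2, mt-Atp6, mt-Co3, mt-Nd3 and mt-Nd4l, which sit between 5.13 and 138 CPM.

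Within the mt-encoded counts of each library, where the total of these genes drops out, mt-Nd4 made up 5.31%, 5.33% and 4.47% in control and 6.54%, 6.49% and 6.96% in KO libraries. mt-Nd5 made up 10.1%, 10.1% and 10.7% and 13.1%, 12.9% and 14.2%. Control replicate 2 lay with the other control libraries on this scale, and the groups did not overlap for either gene. In the opposite direction mt-Co3 made up 0.7%, 0.682% and 0.644% in control and 0.55%, 0.589% and 0.492% in KO libraries, and mt-Co2 1.19%, 1.15% and 1.0% and 0.959%, 0.965% and 0.823%, also without overlap. mt-Atp6 (0.481%, 0.41% and 0.446% against 0.367%, 0.405% and 0.316%) and mt-Nd3 (0.0912%, 0.109% and 0.0686% against 0.0633%, 0.0482% and 0.0462%) were lower without overlap as well. These 4 genes are among the 5 that share at least 98% of their 50-base stretches with other annotated genes, and the fifth, mt-Nd4l, overlapped between the groups. mt-Nd1 made up 13.8%, 13.4% and 9.74% and 10.1%, 9.08% and 8.88%, with overlap. These shares of 1 total move against each other, so a higher share of one gene lowers the others. A fit of edgeR with the mt-encoded counts as library size called 32% of all tested genes at a median log2 fold change of -0.39. In it mt-Nd4 had a log2 fold change of 0.40 (SE 0.41, adjusted p = 0.476) and mt-Nd5 one of 0.38 (SE 0.40, adjusted p = 0.502). Neither was called. The variance was estimated over all tested genes, whose values on this scale carry the spread of the mt-encoded total. The SE was 0.37 to 0.41 in all 13 genes, so this fit cannot decide whether the shares differed.

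Several mt-encoded genes have near-identical copies in the nuclear genome, and levels and sharing are given side by side. Per kilobase the control means were 3184 CPM for mt-Co1, 1275 for mt-Nd1, 1130 for mt-Cytb, 631 for mt-Nd2, 570 for mt-Nd5, 364 for mt-Nd4 and 332 for mt-Nd6. They were 163 for mt-Co2, 86.4 for mt-Co3, 66.6 for mt-Atp6, 31.9 for mt-Nd4l, 24.9 for mt-Nd3 and 15.2 for mt-Atp8. The 5 genes for which at least 98% of the 50-base stretches also occur in another gene of the GENCODE M21 annotation (mt-Co2, mt-Co3, mt-Atp6, mt-Nd4l and mt-Nd3) all had lower levels than the 7 genes from mt-Co1 to mt-Nd6. mt-Atp8 had the lowest level of all and shared 0%. Only annotated genes were searched, so an unannotated copy would be missed, and none was looked for. mt-Atp8 lies between mt-Co2 and mt-Atp6 in mitochondrial DNA, and the copies of these 2 genes are neighbours on chromosome 1. The part of shared stretches in the low levels was not tested. mt-Nd4, which rose, shared 62.2% of its stretches, mt-Co1 shared 51.1%, mt-Nd2 8.19%, mt-Nd5 7.61%, and mt-Nd1, mt-Nd6 and mt-Cytb shared 0%. How the authors' counting treated reads that match more than 1 place is not given in the sources used here, and the levels of the shared genes are uncertain for that reason.

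The copies lie side by side on the minus strand of chromosome 1 in GRCm38, from Gm28439 (chr1:24611535-24612410), whose 876 aligned bases match mt-Nd4 with 0 mismatches, to Gm29216 (chr1:24615706-24616197), whose 483 aligned bases match mt-Co1 with 1. None of these annotated copies is among the genes of the deposited counts, so their expression could not be analysed. The first 70 bases of mt-Co3 and mt-Nd3 are shown beside their copies to make the likeness visible, with the base that differs in capitals.
mt-Co3: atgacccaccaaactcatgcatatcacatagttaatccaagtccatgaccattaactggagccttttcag
Gm28437: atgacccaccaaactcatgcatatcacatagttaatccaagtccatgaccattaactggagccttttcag
mt-Nd3: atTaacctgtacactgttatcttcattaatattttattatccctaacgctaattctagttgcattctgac
Gm28438: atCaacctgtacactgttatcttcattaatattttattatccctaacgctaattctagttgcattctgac
The stretches of mt-Co3 and Gm28437 do not differ, and those of mt-Nd3 and Gm28438 differ at 1 base. A read of this length from either place can therefore match both.

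Among the nuclear members, 14 that rose lay on 11 chromosomes and 8 that fell on 8. The median length of the gene from start to end was 8147 bases for those that rose, 16481 for those that fell and 7197 for the 66 not called. The 8 that fell include Ndufa4l2, which passed the filter through the control libraries alone and is the shortest of them at 2188 bases. These values are given as a description. Across the 88 tested nuclear members the log2 fold change had a Spearman correlation of -0.21 with gene length and of 0.26 with the mean control CPM. Genes are not independent replicates, and all points share the same 6 libraries.

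Neighbouring genes of the same pathway were described from lists by function. Of 15 genes for electron carriers and ubiquinone synthesis 1 rose and 3 fell (6.67% and 20%, against 23.2% and 22.9% of all tested genes). Cytochrome c (Cycs, log2 fold change 0.15) and cytochrome c1 (Cyc1, -0.03) were not called. Coq7, a hydroxylase late in ubiquinone synthesis, stood at 19, 24.1 and 14.1 CPM in control and 7.52, 5.37 and 4.88 in KO libraries (log2 fold change -1.69, SE 0.25, adjusted p = 0.00116). Coq10b, a ubiquinone-binding protein, stood at 24.4, 23.6 and 17.2 CPM and at 60.0, 74.3 and 57.7 (1.56, SE 0.17, adjusted p = 0.000349). Both moved by more than any structural subunit of the complexes. Of 37 tested assembly factors outside the rule 11 rose and 7 fell (29.7% and 18.9%), near the shares over all tested genes. Their list median was 0.09. Cox17, a copper chaperone for complex IV, went from 14, 11.4 and 22.5 CPM to 33, 42 and 39.3 (1.25, adjusted p = 0.00363) and Sdhaf2, which helps to load FAD on Sdha, from 36.5, 47.1 and 37.8 CPM to 67.7, 79.1 and 84.7 (0.93, adjusted p = 0.00134). Ecsit, a factor for complex I assembly, fell from 30.8, 33.7 and 27.9 CPM to 16.1, 15.3 and 13.6 (-1.04, adjusted p = 0.000773), and Coa7, a complex IV factor, had a log2 fold change of -1.18 (adjusted p = 0.00298). The largest rise of that list, 1.53 in Pet100, is uncertain because 46.3% of its 50-base stretches also occur in other genes. The calls of Coq7, Coq10b, Cox17, Sdhaf2, Ecsit, Coa7 and Pet100 held whichever library was left out.

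The 20 genes for transcription, replication and RNA stability of mitochondrial DNA had 2 genes that rose and 7 that fell, with a list median of -0.03. These are 10% and 35%, against 23.2% and 22.9% of all tested genes. Top1mt, the mitochondrial topoisomerase, stood at 15.6, 15.4 and 13.5 CPM in control and 6.91, 3.5 and 2.95 in KO libraries (log2 fold change -1.73, SE 0.31, adjusted p = 0.0025). Tfb1m, which methylates mitochondrial ribosomal RNA, stood at 12, 13.6 and 11.5 CPM and at 5.47, 3.95 and 3.46 (-1.53, SE 0.22, adjusted p = 0.00108). Lrpprc, which stabilizes mitochondrial messenger RNA, stood at 142, 146 and 102 CPM and at 87.0, 62.8 and 58.2 (-0.90, SE 0.19, adjusted p = 0.00513). All 3 were lower in every KO library, and their calls held whichever library was left out. Among the 13 mt-encoded messengers 0 were called lower. Of 9 tested nuclear regulators of respiratory genes 4 fell (Ppargc1b, Hif1a, Gabpb1 and Myc), that is 44.4%, against 22.9% of all tested genes. None rose by edgeR, by DESeq2 or at an unadjusted p under 0.05 (0 genes each). Gabpb1, a subunit of a factor that binds the ETS core, stood at 53.8, 65.8 and 62 CPM and at 37.6, 36.1 and 34.2 (-0.75, SE 0.12, adjusted p = 0.00163). Ppargc1b had a log2 fold change of -2.05 and lost the call without KO replicate 2 (adjusted p = 0.07). Nrf1, whose word is marked in the start-site regions, had a log2 fold change of -0.49 and was not called (adjusted p = 0.0515, with the replicate block 0.0238). Of 4 carriers and the ATP synthase inhibitor in the table, the ADP/ATP carrier Slc25a5 (-0.78, adjusted p = 0.00564) and the inhibitor Atpif1 (-0.68, adjusted p = 0.00481) fell, though 33.8% and 25.2% of their stretches are shared with other genes, and the phosphate carrier Slc25a3 (0.46) and the uncoupling protein Ucp2 (0.42) rose. In this list of 5 genes 40% rose and 40% fell, against 23.2% and 22.9% of all tested genes. Slc25a3 kept its call only without control replicate 2 (adjusted p up to 0.169 otherwise), and Ucp2 lost it without control replicate 1, control replicate 3 or KO replicate 2 (adjusted p up to 0.131).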

How the data were processed

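Total RNA of 6 Th17 libraries was sequenced. The authors deposited a table of raw gene counts, made with STAR, featureCounts and the mm10 genome per the submitters' processing notes, which also name DESeq2; versions, strand setting and the treatment of reads with several matches are not given in the sources used here. Counts were tested as deposited in edgeR 4.0.16 (R 4.3.3) with glmQLFit and glmQLFTest, TMM factors, filterByExpr and Benjamini-Hochberg adjustment over the 14268 genes tested, which held 99.94% of the counts, and called at an adjusted p under 0.05. Genes of the whole table entered 1 fit of KO against control, with 3 libraries each. DESeq2 1.42.0, other scalings and filters, leaving out each library and a replicate block were alternatives, and the test was tried on simulated data. CPM are counts per 1000000 of TMM-scaled totals, and their precision is that of 3 libraries a group. The members and lists were chosen with earlier results of these data known. Named were all mt-encoded members, the restricted isoforms, per complex up to 4 called structural members with the largest rise and fall of at least 5 CPM, the called assembly factors with the largest change, the members with the highest and lowest fold change, members that the block changes, and per list up to 3 called genes each way. Ndufa7 and Ndufb9, uncalled subunits, F1 and c-ring genes, Cycs, Cyc1 and Nrf1 were added after their values were seen.

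Same-numbered libraries deviated together from their group means, with correlations across genes of 0.27, 0.13 and 0.379 for replicates 1, 2 and 3. Libraries of unlike number had correlations from -0.39 to 0.204. The highest of these, control replicate 2 with KO replicate 1, exceeded that of the pair numbered 2. The numbers were taken to pair the libraries to a degree, and the labels do not say what same-numbered libraries share. Shared stretches of 50 bases and lengths were computed from GENCODE M21 transcripts, and copies were aligned with Biopython 1.88. Start-site regions are from RefSeq, build GRCm38.p6. The summed level of the Th17 markers is not reported here.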

Additional observations from a re-analysis of the deposited data

How the results depend on the processing

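With libraries scaled by their totals alone, 26 members were called higher and 4 lower and the median of nuclear-encoded members was 0.15, beside a median of 0.10 over all genes. Over the fits that left out 1 library each, the members called higher numbered 4 to 29, those called lower 2 to 15, nuclear structural members called 4 to 29 and mt-encoded members called 0 to 2. The shares of all tested genes called in these fits are not given beside them. The median log2 fold change of nuclear-encoded members ran from -0.053 to 0.16, and the median log2 fold change of mt-encoded members from -0.16 to 0.37. With the replicate block 24 members were called higher and 11 lower, and no call was lost. DESeq2 shared 23 of the 24 calls and lost Ndufb9. Rtf1 kept its direction and call under all alternatives.

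The following log2 fold changes, none of them called, changed sign. With the mt-encoded counts as library size mt-Atp6 was -0.30, mt-Co1 -0.030, mt-Co2 -0.29, mt-Co3 -0.31, mt-Nd2 -0.098, mt-Nd4l -0.033 and mt-Nd6 -0.11. With upper-quartile factors mt-Atp6 was -0.018 and mt-Co3 -0.0093. By library totals alone Atp5g3 was 0.0012, mt-Atp8 0.073 and mt-Nd1 0.039. mt-Atp8 was 0.12 with the replicate block and 0.38 with the libraries numbered 1 and 2 alone. With 1 library left out Atp5a1 ran from -0.090 to 0.22, Atp5e from -0.0051 to 0.24, Atp5g3 from -0.29 to 0.042, Cox7a1 from -0.056 to 0.090, mt-Atp6 from -0.26 to 0.13, mt-Atp8 from -0.39 to 0.27, mt-Co2 from -0.16 to 0.18, mt-Co3 from -0.21 to 0.11, mt-Nd1 from -0.22 to 0.14 and mt-Nd6 from -0.16 to 0.52. The cause of these changes was not tested. Members with few counts, such as Ndufa4l2, Cox6a2 and Cox8b, are limited by depth.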
